A study of Mus musculus with 17 samples.

Results

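Solute carriers are membrane proteins that move small molecules and ions across the plasma membrane and the membranes of lysosomes, the Golgi and synaptic vesicles. Their genes were taken from the limma table of a study of sorted mouse brain myeloid cells as every row whose symbol begins with Slc and a digit. The mitochondrial family Slc25, the glutamate carriers Slc1a2 and Slc1a3, the fructose carrier Slc2a5 and the iron carriers Slc11a1, Slc11a2 and Slc40a1 were left out. This rule gave 174 of the 13769 genes of the table, and it uses no measured value. Of these 174 genes, 169 encode carriers of 41 families. The other 5, Slc2a4rg-ps, Slc4a1ap, Slc7a6os, Slc9a3r1 and Slc9a3r2, carry the symbol without being carriers, and Slc24a6 encodes an exchanger of the mitochondrial membrane that the rule kept.

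RNA of sorted C57bl6/j brain myeloid cells was sequenced in 17 libraries, from populations labelled µ and TAµ, names that the labels do not spell out. Transplanted TAµ (3 libraries) and transplanted µ (3 libraries) were sorted from BU-treated mice 3 months after they received GFP Lin- cells, and whether the sorted cells carried GFP is not stated. P10 TAµ (8 libraries) came from control mice at postnatal day 10, and adult control µ (3 libraries) from control mice 5 months old. The design text speaks of triplicate mice, whereas the labels list 8 P10 libraries. The title asks how closely brain myeloid cells derived from transplanted progenitors resemble microglia. The transplanted mice and each control differ in age or treatment; preparation days or batches cannot be told apart from these groups.

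In macrophages and microglia, carriers bring in amino acids, glucose, choline and metals, return the products of lysosomal breakdown to the cytosol and set the pH and ion content of the cell. Many work in pairs: the heavy chain Slc3a2 brings light chains of the Slc7 family to the cell surface, and monocarboxylate carriers need the chaperones basigin or embigin. Some are also sensors, such as Slc38a9, which in human cells reports lysosomal arginine to the growth kinase complex mTORC1.

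Values are log2 fold changes, with the first-named group over the second, and ± gives a standard error worked out from each fold change with its p-value. A gene is called, and described as higher or lower, where the Benjamini-Hochberg adjusted p of limma over all 13769 genes was under 0.05 per the authors' deposited table. This table holds comparisons and no values per library, so group levels are given as differences from the mean of the 4 groups. Average log2 expression was at or above the median of all genes for 99 of the 174 members and below the first quartile for 44, and for the low ones the size of a fold change is uncertain. In bulk samples, fewer cells of a type and less RNA per cell cannot be told apart. All 7 defining myeloid markers were measured, and their average log2 expression, a scale not corrected for length, ran from 7.97 for Ptprc to 12 for Csf1r against a median of 3.13 over all genes per the authors' deposited table. The moderated F over the 4 groups called 104 members, 59.8%, against 52.2% of all genes.

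Markers of other brain cells differed between the same groups. Of 8 astrocyte markers, 5 were higher and 0 lower in transplanted µ over adult control µ, and 6 higher and 0 lower in transplanted TAµ over P10 TAµ, per the authors' deposited table. Gja1, an astrocyte connexin, was higher by 4.28 ± 1.25 in transplanted µ over adult control µ and by 2.79 ± 0.49 in transplanted TAµ over P10 TAµ per the authors' deposited table. The myelin gene Mbp was higher by 2.54 ± 0.62 in the first and by 4.0 ± 0.53 in the second of these comparisons per the authors' deposited table. Of 7 neuron markers, 5 were higher in transplanted µ over adult control µ and 1 in transplanted TAµ over P10 TAµ, with none lower in either, per the authors' deposited table. Of 6 oligodendrocyte markers, 2 were higher in the first and 3 in the second of these comparisons, and none was lower, per the authors' deposited table. In transplanted µ over adult control µ, 0 of 3 endothelial markers were called and 1 of 4 pericyte and smooth muscle markers was lower, while in transplanted TAµ over P10 TAµ 2 of each were lower, per the authors' deposited table. Of 2 erythroid markers, 1 was higher in transplanted TAµ over P10 TAµ per the authors' deposited table. The part of these cells in the results on carriers was not tested.

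**Figure D1:**
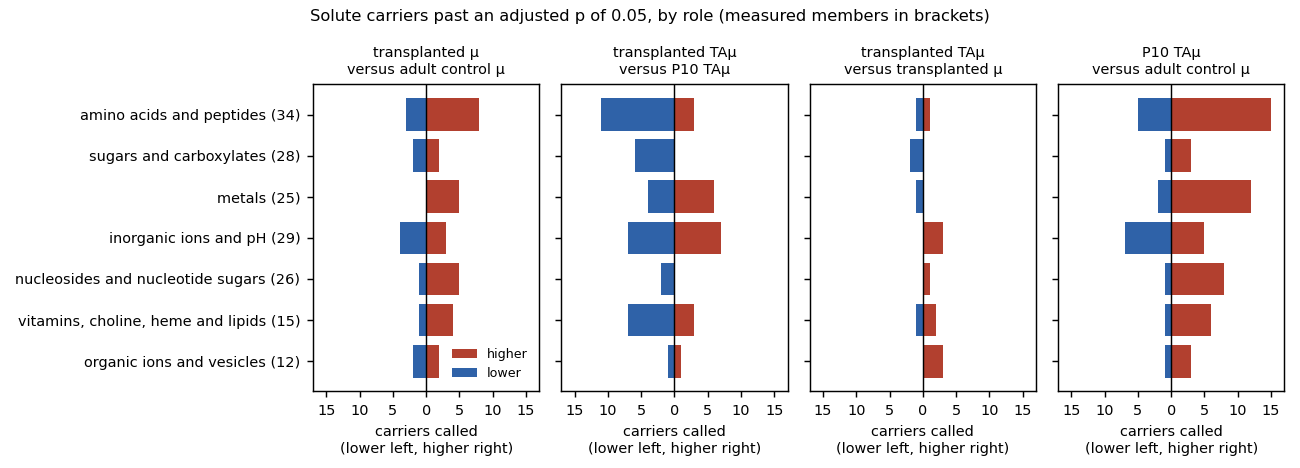
Number of solute carrier genes called higher (to the right of 0) or lower (to the left), by role of the carrier. Calls are at a limma adjusted p under 0.05. The comparisons drawn are transplanted µ over adult control µ, transplanted TAµ over P10 TAµ, transplanted TAµ over transplanted µ, and P10 TAµ over adult control µ. Amino acid and peptide carriers counted 3 higher and 11 lower in transplanted TAµ over P10 TAµ, and 8 higher and 3 lower in transplanted µ over adult control µ. Beside these counts, the whole table had 10.5% of its genes called higher and 15.3% called lower in transplanted TAµ over P10 TAµ. In transplanted µ over adult control µ, its shares were 11.3% and 10.5%.

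Transplanted µ differed from adult control µ in 43 members. In the authors' deposited table, 29 members were higher (16.7%, against 11.3% of all genes) and 14 were lower (8.05%, against 10.5% of all genes). The lowest fold change of a member was -6.83 and the median was 0.36, against a median of 0.19 over all genes, per the authors' deposited table. Centred on that median, 16 of the 173 members with a recovered error were higher (9.25%, against 7.78% of all genes) and 18 lower (10.4%, against 12.8%). Higher calls no longer outnumbered lower ones on that scale, while the members' share of higher calls stayed above and that of lower calls below the share of all genes. Centring ended the calls of 13 members, Slc19a2, Slc2a9, Slc31a1, Slc35a3, Slc38a1, Slc3a2, Slc41a1, Slc48a1, Slc6a6 and Slc7a8 among them. With genes at or above the first quartile of expression alone, 27 of 130 members were higher (20.8%, against 13.1% of these genes) and 5 lower (3.85%, against 9.35%). Golgi nucleotide sugar carriers, choline and heme carriers and zinc importers were among the higher genes, and anion carriers of low expression and the phosphate carrier Slc20a1 among the lower ones. Slc35a5, of the nucleotide sugar family, was higher by 1.45 ± 0.25 (adjusted p = 0.00105), the smallest adjusted p of the higher members per the authors' deposited table. The sodium bicarbonate carrier Slc4a4, typical of astrocytes, was higher by 2.99 ± 0.94 (adjusted p = 0.0312) per the authors' deposited table.

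Transplanted TAµ differed from P10 TAµ in 59 members. In the authors' deposited table, 21 members were higher (12.1%, against 10.5% of all genes) and 38 were lower (21.8%, against 15.3% of all genes). The members' fold changes ran from -8.79 to 3.63 with a median of -0.41, against -0.33 over all genes, per the authors' deposited table. Centred on that median, 26 were higher (14.9%, against 15.8% of all genes) and 23 lower (13.2%, against 10.4%). Centring ended the calls of 15 members, among them Slc16a10, Slc23a2, Slc26a2, Slc2a9, Slc35a2, Slc35c1, Slc36a4, Slc38a9, Slc3a2, Slc7a8 and Slc8a1. Lower in transplanted TAµ were amino acid carriers of the Slc38, Slc43 and Slc7 families, the ascorbate carrier Slc23a2 and the monocarboxylate carrier Slc16a6. Higher were Slc44a1, Slc48a1 and carriers typical of astrocytes. Carriers typical of neurons went both ways, with Slc12a5 and Slc4a10 higher and Slc8a2 lower at -4.77 ± 1.19 (adjusted p = 0.00703) per the authors' deposited table. These neuronal carriers all lie below the first quartile of expression. The glutamine carrier Slc38a1 was lower at -1.49 ± 0.16 (adjusted p = 3.93e-06), the smallest adjusted p of any member in this comparison per the authors' deposited table. Slc12a9, of the cation-chloride cotransporter family, was lower at -3.50 ± 0.52 (adjusted p = 0.000121) per the authors' deposited table.

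P10 TAµ differed from adult control µ in 72 members, the largest count of the 6 comparisons. In the authors' deposited table, 53 members were higher (30.5%, against 23.2% of all genes) and 19 were lower (10.9%, against 12.5% of all genes). The median fold change of the members was 0.64, against 0.41 over all genes, in the authors' deposited table, and centred on the median of all genes 35 were higher (20.2%, against 13.6% of all genes) and 23 lower (13.3%, against 20.3%). Slc38a1 was higher by 1.75 ± 0.14 (adjusted p = 1e-07) and the copper importer Slc31a1 by 2.29 ± 0.23 (adjusted p = 1.64e-06) per the authors' deposited table. This contrast joins a difference in age to a difference in population. Markers of other cells moved with it: in P10 TAµ over adult control µ, 5 of 7 neuron markers were higher and 0 lower, and 2 of 8 astrocyte markers were higher and 1 lower, per the authors' deposited table. The neuronal gene Stmn2 was higher by 5.31 ± 0.88 and Gfap by 2.39 ± 0.88, while the astrocyte glutamate carrier Slc1a3 was lower at -1.26 ± 0.24, per the authors' deposited table. Of the other lists, 1 of 6 oligodendrocyte, 1 of 3 endothelial and 1 of 2 erythroid markers were higher, and of 4 pericyte and smooth muscle markers 2 were higher and 1 lower, per the authors' deposited table. Centred, 4 neuron and 0 astrocyte markers were higher, and the part of these cells in the calls of carriers was not tested. The median standard error over the members was 0.46 here, against 0.59 for transplanted µ over adult control µ, 0.60 for transplanted TAµ over P10 TAµ and 0.71 for transplanted TAµ over transplanted µ.

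Between the transplanted fractions, TAµ differed from µ in 15 members. In the authors' deposited table, 10 were higher (5.75%, against 3.56% of all genes) and 5 lower (2.87%, against 2.93% of all genes). With genes at or above the first quartile alone, 6 of 130 members were higher (4.62%, against 3.41% of these genes) and 6 lower (4.62%, against 3.46%). At or above the median expression, 4 of 99 were higher (4.04%, against 3.2%) and 5 lower (5.05%, against 3.98%). Slc44a1 and Slc48a1 were higher in transplanted TAµ, as were the sialic acid exporter of lysosomes Slc17a5 by 2.09 ± 0.53 (adjusted p = 0.0243) and the lysosomal nucleoside carrier Slc29a3 by 0.58 ± 0.16 (adjusted p = 0.0355) per the authors' deposited table. Slc19a2 (thiamine), Slc2a9 (urate), Slc16a6 (monocarboxylates), Slc38a9 (lysosomal amino acids) and Slc39a9 (zinc) were the 5 lower members. The thiamine carrier Slc19a2 was lower at -5.83 ± 0.89 (adjusted p = 0.000997) with an average log2 expression of 1.0 per the authors' deposited table. The urate carrier Slc2a9 was lower at -2.83 ± 0.71 (adjusted p = 0.0243) per the authors' deposited table. At an adjusted p under 0.01 only Slc19a2 remained. The 3 libraries of each fraction can come from the same mice, since they carry matching letters.

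The 2 remaining contrasts cross population with transplantation and share groups with those above. For transplanted TAµ over adult control µ, 30 members were higher (17.2%, against 16.7% of all genes) and 17 lower (9.77%, against 13.4% of all genes) per the authors' deposited table. For transplanted µ over P10 TAµ, 10 were higher (5.75%, against 7.63% of all genes) and 32 lower (18.4%, against 12.6% of all genes) per the authors' deposited table. Centred on the median of all genes, -0.29, these last counts were 23 higher (13.2%, against 14.2% of all genes) and 25 lower (14.4%, against 8.67%). Over all 6 comparisons, 52 members were called in none and 7 in 5 of them, namely Slc14a1, Slc19a2, Slc24a1, Slc31a1, Slc38a9, Slc44a1 and Slc48a1. P10 TAµ had the highest of the 4 group levels for 62 members and adult control µ the lowest for 68, as fixed by the fold changes without regard to error. Neither the number of comparisons called nor the extreme group was counted over all genes. The median fold change of all genes in P10 TAµ over adult control µ was itself 0.41. Whether the members differ from all genes in these counts is therefore not known.

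**Figure D2:**
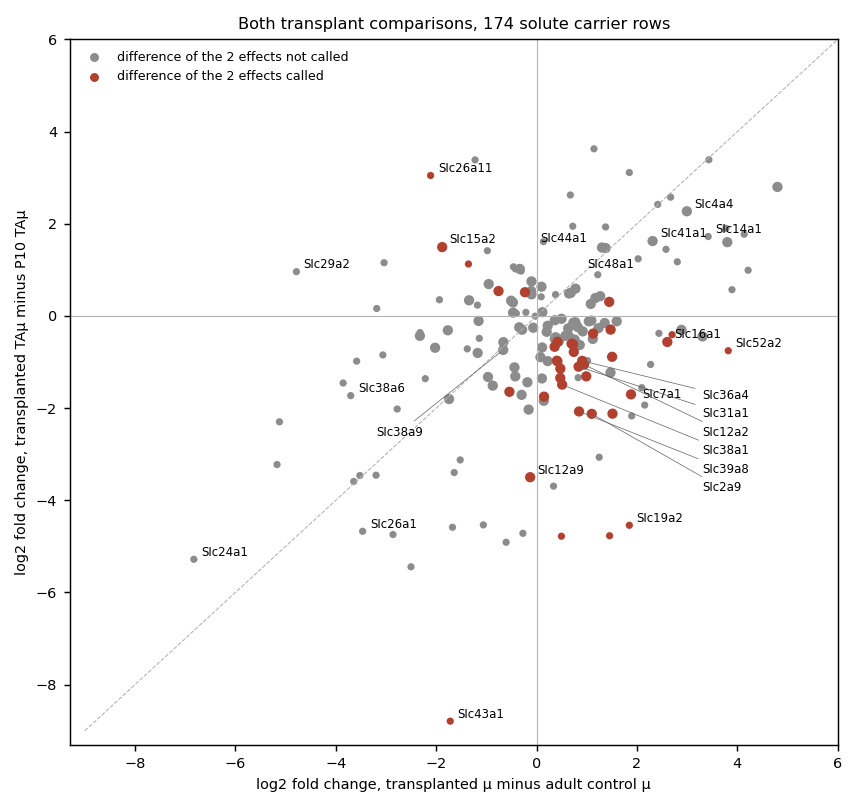
Each point is 1 of the 174 genes, with the log2 fold change of transplanted µ minus adult control µ on the horizontal axis and of transplanted TAµ minus P10 TAµ on the vertical axis. Large points are genes of at least median average expression, red ones have a difference of the 2 effects at an adjusted p under 0.05, and the dashed line marks equal effects; most red points, 31 of 36, lie below it.

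The transplant comparisons share no group, so their calls can be set side by side. Of the 29 members higher in transplanted µ over adult control µ and the 21 higher in transplanted TAµ over P10 TAµ, 6 were in both (20.7% of the first list and 28.6% of the second). Among them were Slc14a1, Slc41a1, Slc44a1, Slc48a1 and Slc4a4. Lower in both were 5 members, Slc10a1, Slc22a15, Slc24a1, Slc26a1 and Slc38a9, which is 35.7% of the 14 lower in transplanted µ and 13.2% of the 38 lower in transplanted TAµ. Higher in transplanted µ and lower in transplanted TAµ were 7 members, Slc12a2, Slc19a2, Slc2a9, Slc31a1, Slc38a1, Slc3a2 and Slc7a8, and 0 showed the opposite pattern. The same overlaps were not counted over all genes. Whether the members differ from all genes in these overlaps is therefore not known. With fold changes centred on the median of all genes, Slc41a1 and Slc48a1 lost their call in transplanted µ over adult control µ. Of the 7 with opposite calls, all but Slc12a2 lost it there too, and Slc2a9, Slc3a2 and Slc7a8 also lost the call in transplanted TAµ over P10 TAµ. Slc10a1 and Slc38a9 lost the call in transplanted TAµ over P10 TAµ.

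Slc44a1, a choline carrier of the plasma membrane, stood in the same order as Slc48a1, which exports heme from the lysosome. The level of Slc44a1 relative to the mean of the 4 groups was 1.36 in transplanted TAµ, 0.03 in transplanted µ, -0.12 in P10 TAµ and -1.27 in adult control µ, as derived from the authors' deposited table. That of Slc48a1 was 1.33 in transplanted TAµ, 0.10 in transplanted µ, -0.15 in P10 TAµ and -1.28 in adult control µ, as derived from the authors' deposited table. For both, transplanted TAµ was the highest group and adult control µ the lowest, and transplanted µ and P10 TAµ lay between them. Slc44a1 was higher in transplanted µ over adult control µ by 1.30 ± 0.32 (adjusted p = 0.00976) and in transplanted TAµ over P10 TAµ by 1.49 ± 0.24 (adjusted p = 0.000293) per the authors' deposited table. In transplanted TAµ over transplanted µ it was higher by 1.33 ± 0.29 (adjusted p = 0.0114), and in transplanted µ over P10 TAµ it differed by 0.16 ± 0.23 (adjusted p = 0.661), per the authors' deposited table. Slc48a1 was higher by 1.37 ± 0.43 (adjusted p = 0.0292) in transplanted µ over adult control µ and by 1.47 ± 0.27 (adjusted p = 0.000659) in transplanted TAµ over P10 TAµ per the authors' deposited table. The first of these calls ended with centring. The difference of Slc48a1 between transplanted µ and P10 TAµ was 0.24 ± 0.27 (adjusted p = 0.554) in the authors' deposited table, within about 1 standard error. The astrocyte gene Gfap was higher by 1.66 ± 0.48 in transplanted TAµ over transplanted µ in the authors' deposited table, while the myelin gene Mbp and the astrocyte gene Gja1 differed by 0.93 ± 0.58 and 1.54 ± 0.54 without a call.

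Slc38a9 had the same extreme groups the other way round. Its level relative to the mean of the 4 groups was -0.88 in transplanted TAµ, 0.17 in transplanted µ, -0.14 in P10 TAµ and 0.84 in adult control µ, as derived from the authors' deposited table. Slc38a9 was lower at -0.67 ± 0.18 (adjusted p = 0.017) in transplanted µ over adult control µ and at -0.74 ± 0.24 (adjusted p = 0.03) in transplanted TAµ over P10 TAµ per the authors' deposited table. The second of these calls ended with centring. In transplanted TAµ over transplanted µ it was lower at -1.05 ± 0.26 (adjusted p = 0.0235) per the authors' deposited table. Of 13 genes of the mTORC1 machinery on the lysosome, to which Slc38a9 reports, 1 was higher and 0 lower in transplanted µ over adult control µ, and 1 higher and 1 lower in transplanted TAµ over P10 TAµ, per the authors' deposited table. Centred on the median of all genes, these counts were 0 and 0, and 2 and 0. The scaffold subunit gene Lamtor1 was higher by 1.26 ± 0.40 (adjusted p = 0.0303) in transplanted µ over adult control µ per the authors' deposited table, a call that ended with centring. Rptor, which encodes the subunit of mTORC1 that binds its substrates, was lower at -1.08 ± 0.28 (adjusted p = 0.0261) in transplanted TAµ over transplanted µ per the authors' deposited table; its call in transplanted TAµ over P10 TAµ, at -0.71 ± 0.25 (adjusted p = 0.0421), ended with centring.

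The promoters of 4 members on which these results turn are shown for their base composition and motifs: the 250 bases before the transcription start in RefSeq (GRCm38.p6), 5′ to 3′ on the gene's strand, with GC boxes (GGGCGG) and E-boxes (CACGTG) in capitals, searched on both strands. Slc44a1, higher in both transplanted groups, lies at chr4:53440163-53440412 (+) and holds 3 GC boxes counted over both strands, of which the last 2 overlap; Slc38a9, lower in both, lies at chr13:112660516-112660765 (+). Slc31a1 lies at chr4:62360451-62360700 (+), and Slc12a9, lower in transplanted TAµ over P10 TAµ, at chr5:137333583-137333832 (-). Slc31a1 was higher in transplanted µ over adult control µ, a call that ended with centring, and lower in transplanted TAµ over P10 TAµ.
Slc44a1: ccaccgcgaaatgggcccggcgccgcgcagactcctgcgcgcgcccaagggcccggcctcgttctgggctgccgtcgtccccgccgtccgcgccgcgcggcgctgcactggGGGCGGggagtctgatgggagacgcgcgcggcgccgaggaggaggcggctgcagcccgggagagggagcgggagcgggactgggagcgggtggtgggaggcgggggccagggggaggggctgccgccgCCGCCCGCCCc
Slc38a9: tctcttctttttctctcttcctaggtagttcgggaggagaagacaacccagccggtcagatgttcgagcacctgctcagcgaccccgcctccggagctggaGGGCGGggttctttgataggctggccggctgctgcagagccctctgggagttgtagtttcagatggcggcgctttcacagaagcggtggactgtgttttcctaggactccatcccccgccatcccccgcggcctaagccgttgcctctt
Slc31a1: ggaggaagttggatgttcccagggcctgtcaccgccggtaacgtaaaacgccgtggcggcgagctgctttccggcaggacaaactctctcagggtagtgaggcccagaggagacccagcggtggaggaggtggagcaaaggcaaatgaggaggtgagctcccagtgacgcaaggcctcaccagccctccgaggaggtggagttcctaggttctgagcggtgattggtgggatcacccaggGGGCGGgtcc
Slc12a9: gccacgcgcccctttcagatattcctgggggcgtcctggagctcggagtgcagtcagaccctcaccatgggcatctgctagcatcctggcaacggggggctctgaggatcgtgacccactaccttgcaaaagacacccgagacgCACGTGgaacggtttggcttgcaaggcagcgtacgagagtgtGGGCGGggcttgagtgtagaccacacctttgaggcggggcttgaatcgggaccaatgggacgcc
A GC box was found in 60.4% of the 134 member promoters of the RefSeq table and in 32.7% of all 27025 promoters in it. An E-box was found in 10.4% of the member promoters and in 5.93% of all promoters. The member promoters belong to genes measured here, whereas all promoters include those of genes outside the 13769 measured. The 2 sets are thus unlike, and the shares do not show a trait of solute carriers. Not all of the 174 members had a promoter there, and Slc48a1, Slc38a1 and Slc12a2 had none. Of the 4 promoters shown, each held at least 1 GC box and that of Slc12a9 held 1 E-box. These matches describe letters and no bound factor.

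**Figure D3:**
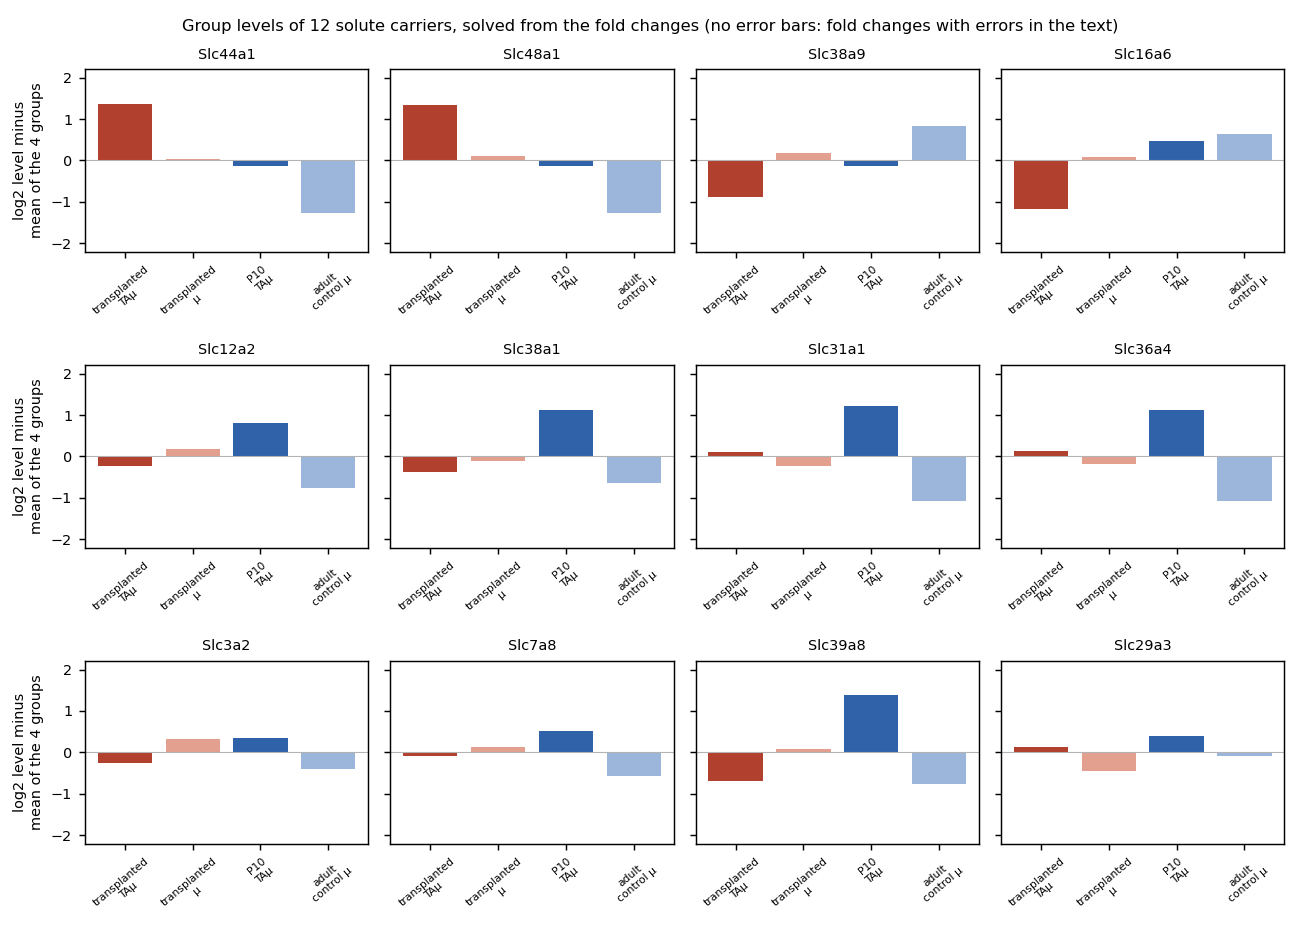
Group levels of chosen members on a log2 scale, as the difference from the mean of the 4 groups, derived from the table's fold changes; bars run in the order transplanted TAµ, transplanted µ, P10 TAµ and adult control µ. Slc44a1 is highest in transplanted TAµ at 1.36 and lowest in adult control µ at -1.27.

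Amino acid and peptide carriers formed the largest role, with 34 members. Roles were given to whole families, so the nucleobase carrier Slc43a3 counts here with its family, and Slc16a10 with the monocarboxylate family. In the authors' deposited table, 8 were higher and 3 lower in transplanted µ over adult control µ, 3 higher and 11 lower in transplanted TAµ over P10 TAµ, and 15 higher and 5 lower in P10 TAµ over adult control µ. Centred on the median of all genes, these counts were 3 and 5, 5 and 7, and 12 and 5, so the direction of the first turned. Uncentred, the whole table had 11.3% of its genes called higher and 10.5% called lower for transplanted µ over adult control µ. These shares were 10.5% and 15.3% for transplanted TAµ over P10 TAµ, and 23.2% and 12.5% for P10 TAµ over adult control µ. For transplanted TAµ over transplanted µ they were 3.56% and 2.93%. Whether the counts of a role, family or list depart from such shares was not tested. Slc38a1, a sodium-coupled importer of glutamine, had levels of -0.37 in transplanted TAµ, -0.12 in transplanted µ, 1.12 in P10 TAµ and -0.63 in adult control µ relative to the mean of the 4 groups, as derived from the authors' deposited table. P10 TAµ thus stood above the other 3 groups. Slc38a1 was higher in transplanted µ over adult control µ by 0.51 ± 0.17 (adjusted p = 0.0396) per the authors' deposited table. Slc38a2, a related importer of small neutral amino acids chosen after its values were seen, was lower in transplanted TAµ over P10 TAµ at -1.35 ± 0.29 (adjusted p = 0.00235) per the authors' deposited table.

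The heavy chain Slc3a2 and the light chain Slc7a8, which together exchange neutral amino acids, had effects of opposite sign in the transplant comparisons. Slc3a2 was higher by 0.73 ± 0.23 (adjusted p = 0.0299) in transplanted µ over adult control µ and lower at -0.62 ± 0.22 (adjusted p = 0.0466) in transplanted TAµ over P10 TAµ per the authors' deposited table. Slc7a8 was higher by 0.70 ± 0.23 (adjusted p = 0.0374) in the first and lower at -0.60 ± 0.21 (adjusted p = 0.047) in the second per the authors' deposited table. Both were also higher in P10 TAµ over adult control µ, by 0.76 ± 0.19 for Slc3a2 and 1.08 ± 0.19 for Slc7a8, per the authors' deposited table. Centring on the median of all genes ended the calls of both genes in both transplant comparisons. It also ended that of Slc3a2 in P10 TAµ over adult control µ. Slc7a5, another light chain of Slc3a2, differed by 1.47 ± 0.64 (adjusted p = 0.104) in transplanted µ over adult control µ and by -1.23 ± 0.62 (adjusted p = 0.156) in transplanted TAµ over P10 TAµ per the authors' deposited table. Slc7a11, the cystine importer that also pairs with Slc3a2, differed by -0.98 ± 1.28 (adjusted p = 0.606) and 1.42 ± 0.90 (adjusted p = 0.261) in the same comparisons per the authors' deposited table. Of 6 genes of glutathione metabolism, which uses that cystine, Gclm was higher by 1.23 ± 0.35 and Gpx1 lower at -1.30 ± 0.29 in transplanted TAµ over P10 TAµ per the authors' deposited table, and 0 were called in transplanted µ over adult control µ. Slc7a7, the light chain for cationic amino acids in macrophages, was lower in P10 TAµ over adult control µ at -1.07 ± 0.23 (adjusted p = 0.00187) per the authors' deposited table.

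Slc36a1, a proton-coupled exporter of small amino acids from lysosomes, was lower in transplanted µ over adult control µ at -1.17 ± 0.30 (adjusted p = 0.0121) per the authors' deposited table. Slc36a4 was lower in transplanted TAµ over P10 TAµ at -0.97 ± 0.28 (adjusted p = 0.0179) and higher in P10 TAµ over adult control µ by 2.19 ± 0.33 (adjusted p = 9.56e-05) per the authors' deposited table. Slc15a4, a histidine and oligopeptide carrier that serves toll-like receptor signalling, was lower in transplanted TAµ over P10 TAµ at -1.44 ± 0.35 (adjusted p = 0.00591) per the authors' deposited table. Its relative Slc15a3 was lower in P10 TAµ over adult control µ at -1.52 ± 0.24 (adjusted p = 0.000129) per the authors' deposited table. Slc15a3 shares 28.1% of its exon bases with Tmem132a in the GENCODE annotation, and how such reads were assigned is not given in the sources used here. Slc43a1 and Slc43a3, an L-type amino acid carrier and a purine nucleobase carrier of the same family, fell in transplanted TAµ: Slc43a1 was lower at -8.79 ± 1.46 and Slc43a3 at -4.72 ± 1.21 in transplanted TAµ over P10 TAµ per the authors' deposited table. Slc43a1 is below the first quartile of expression and Slc43a3 below the median, so these sizes are uncertain. The taurine carrier Slc6a6, chosen after its values were seen, was higher in transplanted µ over adult control µ by 1.09 ± 0.34 (adjusted p = 0.0311) per the authors' deposited table.

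**Figure D4:**
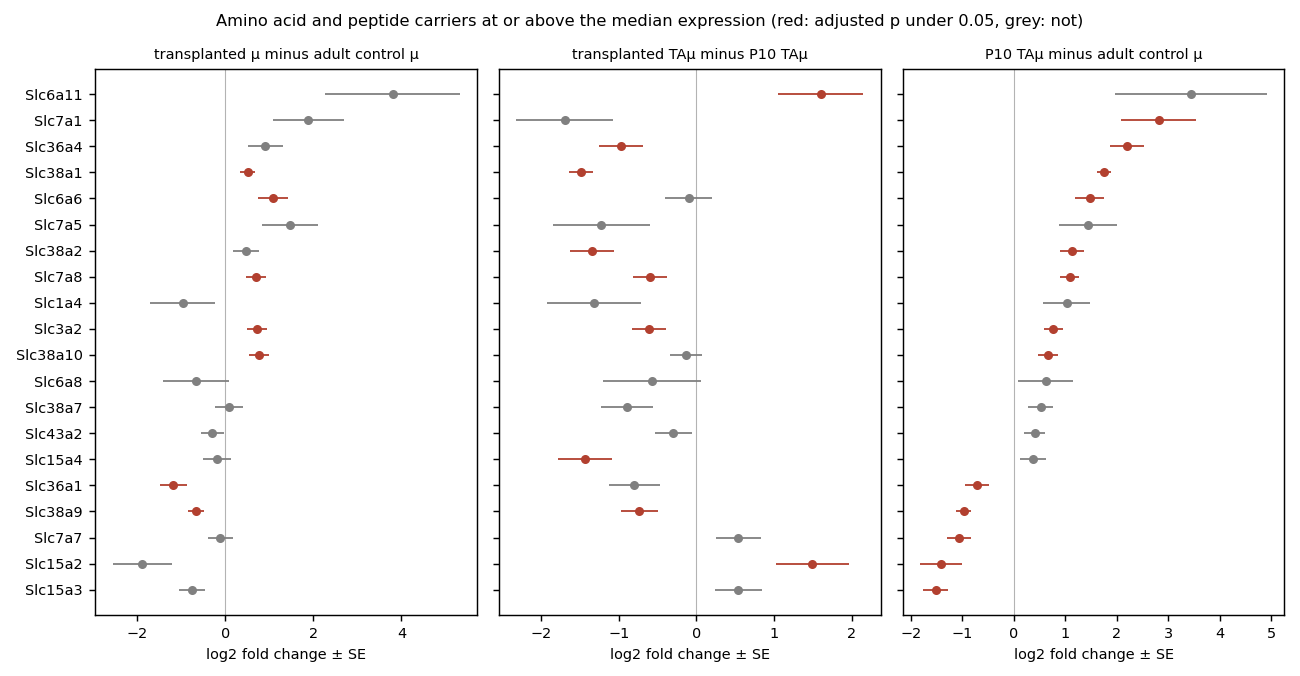
Log2 fold changes of amino acid and peptide carriers at or above the median expression, with bars of 1 standard error, in transplanted µ over adult control µ, transplanted TAµ over P10 TAµ and P10 TAµ over adult control µ; red points were called and 1 carrier is not drawn. Slc38a1 lies at 0.51 in the first comparison and at -1.49 in the second.

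Genes of the amino acid response, which cells raise when amino acids run short, were read from a list of 9 genes of which 7 were measured. In the authors' deposited table, 2 were higher and 1 lower in transplanted µ over adult control µ, 0 higher and 4 lower in transplanted TAµ over P10 TAµ, and 4 higher and 2 lower in P10 TAµ over adult control µ. Centring ended 1 of these calls in each comparison. Psat1, an enzyme of serine synthesis, was higher by 1.93 ± 0.47 (adjusted p = 0.00835) in transplanted µ over adult control µ per the authors' deposited table. The same gene was lower at -1.70 ± 0.34 (adjusted p = 0.00146) in transplanted TAµ over P10 TAµ per the authors' deposited table. The regulator gene Atf4 was lower at -1.18 ± 0.27 (adjusted p = 0.00653) in transplanted µ over adult control µ per the authors' deposited table.

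Carriers of inorganic ions and pH had 29 members, with 3 higher and 4 lower in transplanted µ over adult control µ and 7 higher and 7 lower in transplanted TAµ over P10 TAµ per the authors' deposited table. Centred on the median of all genes, these were 3 and 4, and 8 and 5. Slc12a2, which brings sodium, potassium and chloride into the cell and sets its volume, had levels of -0.24 in transplanted TAµ, 0.18 in transplanted µ, 0.82 in P10 TAµ and -0.76 in adult control µ, as derived from the authors' deposited table. It was higher by 0.95 ± 0.23 (adjusted p = 0.00792) in transplanted µ over adult control µ and lower at -1.06 ± 0.21 (adjusted p = 0.00153) in transplanted TAµ over P10 TAµ per the authors' deposited table. Stk39, a kinase that switches cotransporters of this family, was higher by 4.50 ± 1.04 (adjusted p = 0.00629) in transplanted µ over adult control µ in the authors' deposited table, at an average log2 expression of 1.52. Stk39 was also higher by 1.87 ± 0.54 (adjusted p = 0.0175) in transplanted TAµ over P10 TAµ, where Slc12a2 was lower, per the authors' deposited table.

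Slc9a9, a sodium-proton exchanger of endosomes, was higher by 0.63 ± 0.18 (adjusted p = 0.0176) in transplanted TAµ over P10 TAµ per the authors' deposited table. Slc9a7, its relative of the trans-Golgi network, was higher by 1.36 ± 0.40 (adjusted p = 0.0229) in transplanted µ over adult control µ per the authors' deposited table. The phosphate carrier Slc20a1 was lower at -2.32 ± 0.58 (adjusted p = 0.00982) in transplanted µ over adult control µ per the authors' deposited table. The sulfate carrier Slc26a2 was lower at -0.97 ± 0.32 (adjusted p = 0.0325) and the sodium-calcium exchanger Slc8a1 at -1.31 ± 0.43 (adjusted p = 0.0322) in transplanted TAµ over P10 TAµ per the authors' deposited table, and both calls ended with centring. Slc24a1, a calcium exchanger known from rod photoreceptors, was lower at -6.83 in transplanted µ over adult control µ and -5.28 in transplanted TAµ over P10 TAµ per the authors' deposited table. Its average log2 expression was -0.23, below the first quartile. Slc12a5, Slc4a10 and Slc4a3, of which the first 2 are typical of neurons, were the higher members of this role in transplanted TAµ over transplanted µ, by 3.73 ± 1.02, 3.96 ± 0.90 and 5.52 ± 1.35 per the authors' deposited table. All 3 lie below the first quartile of expression.

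Metal carriers had 25 members, of which 5 were higher and 0 lower in transplanted µ over adult control µ, 6 higher and 4 lower in transplanted TAµ over P10 TAµ, and 12 higher and 2 lower in P10 TAµ over adult control µ per the authors' deposited table. Centred, these counts were 3 and 0, 7 and 3, and 8 and 4. Slc31a1, the importer of copper, had levels of 0.11 in transplanted TAµ, -0.24 in transplanted µ, 1.21 in P10 TAµ and -1.08 in adult control µ, as derived from the authors' deposited table. It was higher by 0.84 ± 0.28 (adjusted p = 0.0399) in transplanted µ over adult control µ and lower at -1.10 ± 0.23 (adjusted p = 0.00185) in transplanted TAµ over P10 TAµ per the authors' deposited table. Both transplanted groups thus lay between P10 TAµ and adult control µ. The 13 zinc importers of the Slc39 family counted 3 higher and 0 lower in transplanted µ over adult control µ, and 3 higher and 3 lower in transplanted TAµ over P10 TAµ, per the authors' deposited table. Slc39a10 was higher by 1.47 ± 0.36 (adjusted p = 0.00863) and Slc39a6 by 1.27 ± 0.32 (adjusted p = 0.0104) in transplanted µ over adult control µ per the authors' deposited table. Slc39a8, a zinc and manganese importer of the plasma membrane, was lower at -2.07 ± 0.34 (adjusted p = 0.00027) in transplanted TAµ over P10 TAµ and higher by 2.15 ± 0.28 (adjusted p = 2.09e-05) in P10 TAµ over adult control µ per the authors' deposited table. The zinc exporter Slc30a1 was higher by 1.92 ± 0.45 (adjusted p = 0.00316) in P10 TAµ over adult control µ per the authors' deposited table. Mt1, the zinc-binding metallothionein, was higher by 1.09 ± 0.32 (adjusted p = 0.0193) in transplanted TAµ over P10 TAµ per the authors' deposited table. The magnesium carrier Slc41a1 was higher in both transplant comparisons, by 2.31 ± 0.75 in transplanted µ over adult control µ and by 1.63 ± 0.39 in transplanted TAµ over P10 TAµ, per the authors' deposited table.

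Of 28 carriers of sugars and carboxylates, 2 were higher and 2 lower in transplanted µ over adult control µ, and 0 higher and 6 lower in transplanted TAµ over P10 TAµ, per the authors' deposited table. Centred, these were 1 and 3, and 1 and 3. Slc16a6, a monocarboxylate carrier, had levels of -1.18 in transplanted TAµ, 0.09 in transplanted µ, 0.46 in P10 TAµ and 0.63 in adult control µ, as derived from the authors' deposited table. Transplanted TAµ stood below the other 3 groups, at -1.65 ± 0.27 (adjusted p = 0.000291) over P10 TAµ, -1.27 ± 0.30 (adjusted p = 0.0177) over transplanted µ and -1.82 ± 0.29 (adjusted p = 0.000313) over adult control µ per the authors' deposited table. Slc16a6 shares 23.5% of its exon bases with genes such as Amz2 and Arsg. The lactate carrier Slc16a1 was higher by 2.60 ± 0.80 (adjusted p = 0.0287) in transplanted µ over adult control µ, whereas Slc16a3, the lactate exporter of glycolytic cells, differed by 0.49 ± 0.86 (adjusted p = 0.704), per the authors' deposited table. Slc16a3 was lower at -4.78 ± 1.48 (adjusted p = 0.0246) in transplanted TAµ over P10 TAµ in the authors' deposited table, with an average expression below the median. Slc16a10, which carries aromatic amino acids, was lower at -1.12 ± 0.37 (adjusted p = 0.032) in transplanted TAµ over P10 TAµ per the authors' deposited table.

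The chaperone genes Nptn and Bsg were higher in transplanted µ over adult control µ, by 0.84 ± 0.23 (adjusted p = 0.0158) and 0.62 ± 0.17 (adjusted p = 0.0166), per the authors' deposited table. With centring, 0 of the 3 chaperones were called there. The glucose importer Slc2a1 differed by 1.23 ± 0.45 (adjusted p = 0.0573) in transplanted µ over adult control µ and by -0.27 ± 0.43 (adjusted p = 0.678) in transplanted TAµ over P10 TAµ per the authors' deposited table. Slc2a3, the other main glucose importer of macrophages and neurons, differed by -3.19 ± 1.18 (adjusted p = 0.0611) and 0.16 ± 0.77 (adjusted p = 0.893) in the same comparisons per the authors' deposited table. No call was made for either glucose carrier in these comparisons.

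Carriers of nucleosides and nucleotide sugars had 26 members, 21 of them of the Slc35 family, whose known members fill the Golgi and endoplasmic reticulum with the sugars for glycosylation. Of these 21, 5 were higher and 0 lower in transplanted µ over adult control µ, 0 higher and 2 lower in transplanted TAµ over P10 TAµ, and 7 higher and 1 lower in P10 TAµ over adult control µ per the authors' deposited table. Centred, these counts were 2 and 0, 0 and 0, and 4 and 2. Slc35a4 was higher by 1.08 ± 0.30 (adjusted p = 0.0168) in transplanted µ over adult control µ and Slc35a3, a carrier of UDP-N-acetylglucosamine, by 0.92 ± 0.32 (adjusted p = 0.0485) per the authors' deposited table. The UDP-galactose carrier Slc35a2 was lower at -2.12 ± 0.74 (adjusted p = 0.0422) and the GDP-fucose carrier Slc35c1 at -2.03 ± 0.73 (adjusted p = 0.0472) in transplanted TAµ over P10 TAµ per the authors' deposited table. Slc29a3, which exports nucleosides from lysosomes, was lower in transplanted µ over P10 TAµ at -0.83 ± 0.12 (adjusted p = 9.45e-05) per the authors' deposited table.

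Of 15 carriers of vitamins, choline, heme and lipids, 4 were higher and 1 lower in transplanted µ over adult control µ, and 3 higher and 7 lower in transplanted TAµ over P10 TAµ, per the authors' deposited table. Centred, these were 2 and 1, and 3 and 4. Beside Slc44a1 and Slc48a1, the ascorbate carrier Slc23a2 was lower at -0.56 ± 0.18 (adjusted p = 0.0294) in transplanted TAµ over P10 TAµ per the authors' deposited table. Slc46a3, a lysosomal carrier, was lower at -1.71 ± 0.44 (adjusted p = 0.00894) and Slc10a7, of the bile acid family, at -1.75 ± 0.36 (adjusted p = 0.0018) in transplanted TAµ over P10 TAµ per the authors' deposited table. The riboflavin carrier Slc52a2 was higher by 3.82 ± 0.99 (adjusted p = 0.0119) in transplanted µ over adult control µ in the authors' deposited table, at an average log2 expression of 1.97. Slc19a2 was higher by 1.85 ± 0.62 (adjusted p = 0.0418) in transplanted µ over adult control µ and lower at -4.54 ± 0.87 (adjusted p = 0.00108) in transplanted TAµ over P10 TAµ per the authors' deposited table.

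The 12 carriers of organic ions and vesicles counted 2 higher and 2 lower in transplanted µ over adult control µ, 1 higher and 1 lower in transplanted TAµ over P10 TAµ, and 3 higher and 0 lower in transplanted TAµ over transplanted µ per the authors' deposited table. Slc17a5, the lysosomal sialic acid exporter, had levels of 1.0 in transplanted TAµ, -1.09 in transplanted µ, 0.67 in P10 TAµ and -0.58 in adult control µ, as derived from the authors' deposited table. The TAµ groups lay above the µ groups, and in transplanted µ over P10 TAµ it was lower at -1.76 ± 0.46 (adjusted p = 0.0114) per the authors' deposited table. The urea carrier Slc14a1, typical of astrocytes and erythroid cells, was higher by 3.42 ± 1.03 in transplanted µ over adult control µ and by 1.72 ± 0.41 in transplanted TAµ over P10 TAµ per the authors' deposited table. Slc18b1, a vesicular polyamine carrier, was higher by 1.5 ± 0.42 (adjusted p = 0.0177) in transplanted µ over adult control µ per the authors' deposited table.

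Lists of carriers typical of a cell type were read apart. Of 12 measured carriers typical of astrocytes, 5 were higher and 0 lower in transplanted µ over adult control µ, 6 higher and 0 lower in transplanted TAµ over P10 TAµ, and 4 higher and 2 lower in P10 TAµ over adult control µ per the authors' deposited table. Their median fold change was 2.94 in the first of these and 1.66 in the second, against 0.19 and -0.33 over all genes, per the authors' deposited table. Slc4a4 was higher by 2.27 ± 0.41 (adjusted p = 0.000735) and the zinc carrier Slc39a12 by 2.62 ± 0.63 (adjusted p = 0.00538) in transplanted TAµ over P10 TAµ per the authors' deposited table. Beside them, the astrocyte glutamate carrier Slc1a2, left out of the members, was higher by 2.45 ± 0.52 in transplanted µ over adult control µ and by 3.93 ± 0.46 in transplanted TAµ over P10 TAµ per the authors' deposited table. Slc15a2, on the same list, was higher by 1.49 ± 0.47 (adjusted p = 0.0269) in transplanted TAµ over P10 TAµ but differed by -1.88 ± 0.67 (adjusted p = 0.0533) in transplanted µ over adult control µ per the authors' deposited table. Of 7 measured carriers typical of neurons, 0 were called in transplanted µ over adult control µ, and 2 were higher and 1 lower in transplanted TAµ over P10 TAµ, per the authors' deposited table. Of 6 typical of brain endothelium, 1 was higher and 1 lower in transplanted µ over adult control µ and 0 were called in transplanted TAµ over P10 TAµ per the authors' deposited table. Of 2 typical of erythroid cells, 1 was higher in each, and 1 was lower in transplanted TAµ over P10 TAµ, per the authors' deposited table.

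Of 24 carriers studied in macrophages, 5 were higher and 1 lower in transplanted µ over adult control µ, 3 higher and 8 lower in transplanted TAµ over P10 TAµ, and 2 higher and 1 lower in transplanted TAµ over transplanted µ per the authors' deposited table. Centred, these counts were 2 and 3, 5 and 5, and 2 and 1. The zinc importer Slc39a14 was higher by 1.95 ± 0.67 (adjusted p = 0.041) in transplanted TAµ over P10 TAµ per the authors' deposited table. The sugar phosphate carrier Slc37a2 differed by 0.76 ± 0.37 (adjusted p = 0.15) in transplanted µ over adult control µ and by -0.51 ± 0.38 (adjusted p = 0.332) in transplanted TAµ over P10 TAµ per the authors' deposited table.

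The difference of the transplant effects, transplanted TAµ over P10 TAµ minus transplanted µ over adult control µ, was tested for each gene from the recovered standard errors, with Benjamini-Hochberg adjustment over 13750 genes. Of the members, 5 were called higher (2.87%, against 3.67% of these genes) and 31 lower (17.8%, against 9.51%). The median difference was -0.85 over the members and -0.50 over all genes, and centred on that of all genes 10 were higher (5.78%, against 7.18% of these genes) and 10 lower (5.78%, against 4.49%). Lower calls no longer outnumbered higher ones on that scale, while the members' share of lower calls stayed above that of all genes. The controls of the effects differ in age, and age cannot be told apart from population in this difference. Slc38a1 had a difference of -2.0 ± 0.23 (adjusted p = 0.000126) and Slc12a2 one of -2.0 ± 0.31 (adjusted p = 0.000858). Slc31a1 followed with -1.94 ± 0.36 (adjusted p = 0.00264), Slc39a8 with -2.92 ± 0.48 (adjusted p = 0.00125) and Slc12a9 with -3.37 ± 0.63 (adjusted p = 0.00286). These 5 kept the call when centred, whereas 21 others of the 36, Slc3a2, Slc7a8, Slc36a4, Slc16a6 and Slc23a2 among them, lost it. Called higher among members of at least median expression were Slc15a2 at 3.37 ± 0.82 (adjusted p = 0.0137) and Slc15a3 at 1.30 ± 0.42 (adjusted p = 0.0489), among others. By role, amino acid and peptide carriers counted 2 higher and 7 lower (20.6% lower), metal carriers 0 and 6 (24% lower), and carriers of vitamins, choline, heme and lipids 1 and 5 (33.3% lower), beside the 9.51% of all genes. Centred, these counts were 2 and 2, 1 and 2, and 1 and 1. Slc44a1 and Slc48a1 had no call here, at 0.18 ± 0.41 (adjusted p = 0.794) and 0.10 ± 0.50 (adjusted p = 0.913).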

How the data were processed

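RNA sequencing was read from 1 table of 13769 genes with the comparisons between 4 groups (17 libraries). Per the labels' protocols, 100 ng of RNA (RNeasy Plus Micro) went through Ovation V2 amplification and Ultralow library preparation and was read single-end for 50 cycles, to 30 M clusters on average. The submitters' processing notes name STAR 2.3.0, HTSeq 0.5.3, limma and mm10; how values were normalized and genes filtered is not given in the sources used here. Per the file headers, limma gave the authors' log2 average expression and log2 fold changes. The authors' p-values, raw and Benjamini-Hochberg adjusted, come from the same fit, per the file headers. Deposited score columns hold a moderated F and calls of 1, 0 and -1. Apart from the word mice in the design text, nothing says how the libraries of a group relate, so p-values measure the spread between these samples.

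The headers do not give the sign; it was read so that 8 proliferation genes stand higher in P10 TAµ. Each standard error was worked out from fold change and p-value with 18 total degrees of freedom of the moderated fit (residual and prior together), solved from F in 3000 genes. The difference of effects was tested in 13750 genes. 19 genes, Slc24a1 among them, had no recovered error. On simulated data of 13769 genes, by which these steps were tested, 99.98% of calls matched limma 3.58.1 (R 4.3.3). There 7.0% of genes with a planted 2-fold and 64.0% with a planted 4-fold difference of effects were called. Few genes were changed in that simulation, all above the median expression, and its spread was set rather than taken from these data. These shares are therefore not the power of the test in the real data. Python 3.11.15, pandas 2.3.3 and scipy 1.17.1 did the rest. A gene was called at an adjusted p under 0.05.

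The members and lists were chosen with earlier results of these data known. Named genes are, for each comparison, the 2 members of a role with the lowest adjusted p each way, the 5 largest rises and falls at or above median expression, the carriers studied in macrophages, the extremes of families with at least 4 members, and the first partner gene of a list. Genes outside this rule are marked as such or belong to lists of markers. Some genes of this rule are not reported here. Alternatives were a threshold of 0.01, a log2 fold change of at least 1, filters at the first quartile and the median of expression, Bonferroni adjustment, centring and 1 entry per symbol. Of the members, 173 matched GENCODE M21, and 8 share over 20% of their exon bases with another gene.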

Additional observations from a re-analysis of the deposited data

Results flagged for a closer look

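The difference of the transplant effects, transplanted TAµ over P10 TAµ minus transplanted µ over adult control µ, passed an adjusted p of 0.05 for 27 of the members chosen by the naming rule. What made each of them stand out is this test of the difference itself. Negative differences, on the log2 scale and among members of at least median average expression, were Slc38a1 -2.0, Slc12a2 -2.0, Slc39a8 -2.92, Slc31a1 -1.94, Slc12a9 -3.37, Slc3a2 -1.34, Slc7a8 -1.30, Slc2a9 -3.22 and Slc10a7 -1.90. Those of Slc39a9 -1.62, Slc35a2 -3.63, Slc36a4 -1.88, Slc18b1 -2.39, Slc39a10 -1.77, Slc23a2 -0.98, Slc7a1 -3.58, Slc16a1 -3.17, Slc35a5 -1.14, Slc16a6 -1.10 and Slc26a2 -1.38 were also negative. Below the median expression, where the size is uncertain, the negative differences were Slc19a2 -6.39, Slc52a2 -4.57, Slc43a1 -7.07 and Slc16a3 -5.27. Positive differences were Slc26a11 5.16, Slc15a2 3.37 and Slc15a3 1.30.

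Of these 27 genes, 11 kept the call with fold changes centred on the median of all genes and 16 did not. The controls differ in age, at postnatal day 10 and 5 months, and age cannot be told apart from population here.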

How the results depend on the processing

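The fold changes of all genes were not centred on 0: their median was 0.19 for transplanted µ over adult control µ, -0.33 for transplanted TAµ over P10 TAµ, 0.41 for P10 TAµ over adult control µ and -0.29 for transplanted µ over P10 TAµ. Centring left the total of members called within 1.5 times in the 6 deposited comparisons, and the difference of the transplant effects fell to 20 members, against 36 without centring. In the named genes, centring kept 210 calls and ended 61, and none changed sign under any alternative. An adjusted p under 0.01 left 9 members for transplanted µ over adult control µ, 31 for transplanted TAµ over P10 TAµ, 1 for transplanted TAµ over transplanted µ, 44 for P10 TAµ over adult control µ, 28 for transplanted TAµ over adult control µ, 20 for transplanted µ over P10 TAµ and 7 for the difference of effects. Bonferroni adjustment left, in the same order without the last, 1, 2, 0, 7, 3 and 4 members, the 0 standing beside 15 called by limma with Benjamini-Hochberg adjustment. With genes of at least median expression alone, 34 members were called for transplanted TAµ over P10 TAµ, 9 for transplanted TAµ over transplanted µ, 25 for transplanted TAµ over adult control µ and 23 for transplanted µ over P10 TAµ. With genes above the first quartile, transplanted TAµ over adult control µ had 30. These filters leave fewer members to call. A minimum absolute log2 fold change of 1, 1 entry per symbol and a normal distribution for the difference of effects left the totals within 1.5 times.

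No paired analysis was possible because the file holds comparisons and no values per library, so the matching letters of the transplanted fractions could not be used as a block, and leaving out single replicates was not run. Precision rests on 3 libraries in 3 of the groups, and depth per library was not analysed here.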
